A study of Homo sapiens with 4 samples.

Results

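CYP1A1, the cytochrome P450 that oxidises polycyclic aromatic hydrocarbons, was examined together with 5 other genes of the aryl hydrocarbon receptor (AHR) pathway, namely CYP1B1, AHR, AHRR, ARNT and TIPARP. These 6 genes were taken by gene name from a table of 60666 rows, in which each name occurred once. They were chosen by the lactate contrast itself, that is by the TPM values compared below, since CYP1A1 stood among its larger rises. Their differences between conditions are therefore given as a description, and p-values are given for other genes only. The RNA came from cells of HGC27, a line established from a human gastric cancer. The lactate group (n = 2) was cultured for 24 h in glucose-free DMEM with 25 mM lactate, and the no glucose group (n = 2) in the same glucose-free DMEM without it. Both media contained fetal bovine serum and antibiotics, and no glucose-fed group was analysed here. The comparison addressed which transcripts respond to lactate in cells deprived of glucose.

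AHR is a transcription factor of the bHLH-PAS family that is held in the cytosol by a chaperone complex until it binds a ligand such as a dioxin, a polycyclic hydrocarbon or a tryptophan derivative. It then enters the nucleus, pairs with ARNT and binds DNA elements with the core GCGTG near its target genes. CYP1A1 and CYP1B1 are the best known of these targets and oxidise many AHR ligands. AHRR and TIPARP are also induced by AHR and restrain it, the first as a repressor that competes for ARNT and the second as an enzyme that attaches ADP-ribose to AHR.

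Levels are in TPM, a length-scaled share of the transcripts of a library, so different genes can be compared but the number of reads behind a value is unknown. Column sums lay between 995439 and 996089, and transcripts of the mitochondrial genome took 12.4% and 12.6% of the lactate libraries and 12.9% and 13.6% of the no glucose libraries. Of 10 gastric differentiation markers, 7 were listed at 0 in all 4 libraries, including MUC5AC and TFF1, and only MUC6 had a mean of at least 1 TPM. The epithelial list of 8 genes also held VIM, which is not an epithelial marker. Of the 8, 4 had a mean of at least 1 TPM, namely KRT8, CDH1, KRT7 and VIM. The keratin KRT8 was at 6.07 and 6 TPM with lactate and 2.08 and 1.87 TPM without. CDH1 was at 3.76 and 1.63 TPM with lactate and 1.95 and 0.83 TPM without. EPCAM was lower, at 0.37 and 0.8 TPM with lactate and 0.13 and 0.15 TPM without. The intermediate filament gene VIM, in contrast, was at 2943 and 2747 TPM with lactate and 2915 and 2984 TPM without. The markers thus gave little sign of the gastric epithelial identity of the label, and the cells are called by the name of the line. Markers of hepatocytes, which make most P450 enzymes in the body, summed to 1.08 and 1.78 TPM with lactate and 0.55 and 0.82 TPM without, and none of 8 had a mean of 1 TPM. The lymphocyte markers CD3E, CD3D and MS4A1 were listed at 0 in all 4 libraries. Of 8 endothelial and fibroblast markers 4 had a mean of at least 1 TPM, all of the fibroblast kind, and the sums of the 8 were 718.3 and 741.2 TPM with lactate and 640.8 and 664.1 TPM without. The endothelial genes PECAM1 and CDH5 did not exceed 0.01 TPM. KRT8 (log2 fold change 1.24, adjusted p = 0.0328, limma) and COL1A2 (1.09, adjusted p = 0.0308) rose with lactate, and their part in the results on AHR genes was not tested. In bulk RNA a smaller number of cells of a kind and less RNA per cell cannot be told apart.

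CYP1A1 lies on chromosome 15 (NCBI gene 1543, GRCh38, 74719542 to 74725610, minus strand). The sequence around its start is shown because this gene had the widest ratio between conditions of the 6, and those of AHRR and TIPARP because both are AHR-induced restraints on the receptor. CYP1A2, the nearest relative of CYP1A1 on the same chromosome, is shown beside them and was picked after its values were seen. Each stretch runs from 250 bases before to 50 bases after a RefSeq transcription start on GRCh38.p14. Capitals mark the core GCGTG, or CACGC where it lies on the opposite strand.
CYP1A1 (chr15:74725479-74725778, minus strand): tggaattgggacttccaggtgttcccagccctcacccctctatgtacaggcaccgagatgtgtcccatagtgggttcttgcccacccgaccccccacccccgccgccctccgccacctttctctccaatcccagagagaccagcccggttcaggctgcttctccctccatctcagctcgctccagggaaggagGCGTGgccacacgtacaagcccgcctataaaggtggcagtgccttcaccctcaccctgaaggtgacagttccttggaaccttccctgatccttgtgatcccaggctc
AHRR (chr5:321464-321763, plus strand): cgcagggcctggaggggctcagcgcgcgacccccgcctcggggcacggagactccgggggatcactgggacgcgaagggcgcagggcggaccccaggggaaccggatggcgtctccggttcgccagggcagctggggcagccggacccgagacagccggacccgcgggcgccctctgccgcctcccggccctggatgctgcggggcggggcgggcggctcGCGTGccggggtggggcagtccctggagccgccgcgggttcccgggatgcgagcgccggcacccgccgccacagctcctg
TIPARP (chr3:156674340-156674639, plus strand): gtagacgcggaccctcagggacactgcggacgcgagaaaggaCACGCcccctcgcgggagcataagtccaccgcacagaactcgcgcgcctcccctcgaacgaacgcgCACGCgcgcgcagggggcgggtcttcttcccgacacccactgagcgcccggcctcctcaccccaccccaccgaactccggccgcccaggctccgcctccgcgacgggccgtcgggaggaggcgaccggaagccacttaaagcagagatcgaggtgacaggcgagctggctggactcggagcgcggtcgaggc
CYP1A2 (chr15:74748595-74748894, plus strand): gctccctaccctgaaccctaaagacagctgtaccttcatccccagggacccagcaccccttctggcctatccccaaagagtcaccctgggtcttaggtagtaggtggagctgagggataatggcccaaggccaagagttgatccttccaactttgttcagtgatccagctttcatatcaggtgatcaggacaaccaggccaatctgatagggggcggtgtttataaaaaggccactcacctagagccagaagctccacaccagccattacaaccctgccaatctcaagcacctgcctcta

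The window of CYP1A1 held 1 core, beginning at position -57 from the start. That of AHRR (first of 2 listed starts) held 1, beginning at position -30, which was also a match to the longer element TNGCGTG. TIPARP (first of 3 listed starts) held 2 on the opposite strand, beginning at positions -208 and -142. The second start of AHRR had 2 cores, and the other 2 starts of TIPARP had none. AHR itself had 1 core after the start at position 38, and the windows of ARNT and CYP1A2 had no match. CYP1B1 had no window in the table. Searched on both strands, GCGTG occurred in 36.3% and TNGCGTG in 5.51% of the windows of 27305 genes, so the shorter core is common. GCGTG is also 1 form of the core bound by HIF factors. A match is a stretch of letters and not a tested site, and windows further upstream were not searched.

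CYP1A1 was higher with lactate than without it, by the widest ratio of the 6 genes. It was at 27.4 and 28.2 TPM with lactate and at 8.01 and 6.98 TPM without. Both lactate libraries lay well above both no glucose libraries, 19.4 TPM apart at the nearest. The means were 27.8 ± 0.544 TPM with lactate and 7.495 ± 0.728 TPM without (SD, n = 2 each), a ratio of 3.71. On the log2(TPM + 1) scale, where the added 1 shrinks the change of weakly expressed genes, the fold change was 1.77 ± 0.12 (SE from the limma fit across all rows). Of all 15051 tested rows, those with a mean of at least 1 TPM, 0.518% had a larger log2 fold change. Over all tested rows the log2 fold change had a median of 0.083, against which each value is to be read.

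CYP1B1, the second P450 of the family with appreciable RNA, oxidises hydrocarbons and estradiol (NCBI gene 1545, chromosome 2, 38066973 to 38109902). It was at 85.1 and 103 TPM with lactate and at 57.8 and 61.5 TPM without. It was thus the most abundant of the 6 genes in every library, and its groups did not overlap. The means were 94.2 ± 12.8 TPM with lactate and 59.6 ± 2.58 TPM without, a ratio of 1.58 and a log2 fold change of 0.65 ± 0.12. In TPM the difference of means was 34.6, above the 20.3 TPM of CYP1A1, although the ratio was smaller. The antisense gene CYP1B1-AS1 shares 678 exonic bases with CYP1B1, 11.3% of its exons, and it is not known whether counting used strand. CYP1B1-AS1 was low, at 5.22 and 6.91 TPM with lactate and 6.51 and 9.21 TPM without.

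**Figure D1:**
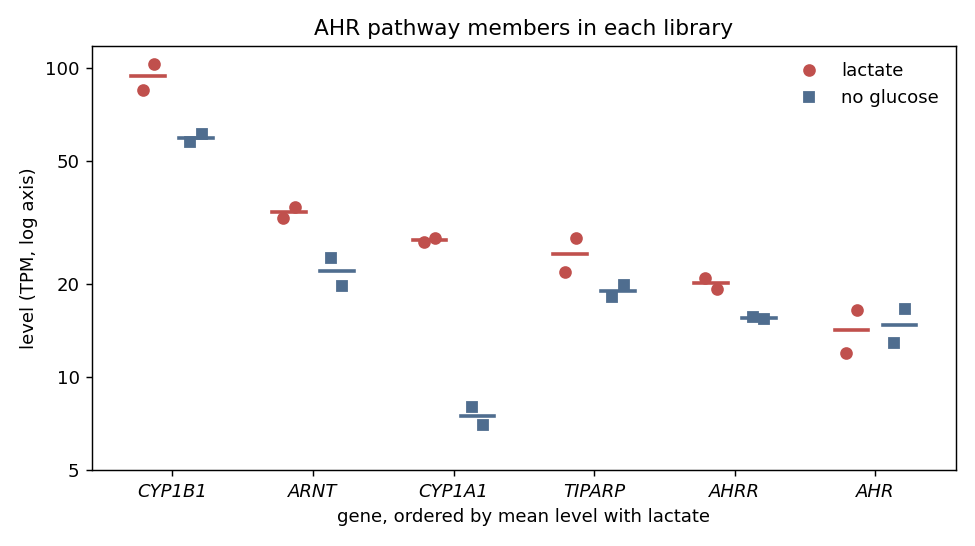
Level of each of the 6 genes in TPM on a log axis. Circles are the 2 lactate libraries, squares the 2 no glucose libraries, and short lines the group means. With lactate CYP1A1, at 27.4 and 28.2 TPM, overlapped TIPARP, at 21.9 and 28.2 TPM. Without lactate CYP1A1 was the lowest of the 6, at 8.01 and 6.98 TPM, while AHR overlapped between groups.

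The receptor gene AHR (NCBI gene 196, chromosome 7, 16916359 to 17346152) did not separate the groups. It was at 11.96 and 16.5 TPM with lactate and at 12.9 and 16.6 TPM without. The spread within a condition was wider than the difference between them, with means of 14.2 ± 3.20 TPM with lactate and 14.7 ± 2.65 TPM without. Its log2 fold change was -0.05 ± 0.20 and took either sign when 1 library was left out, between -0.27 and 0.16. In GENCODE the gene AC019117.2 shares 2373 exonic bases with AHR on the same strand, 29.4% of its exons. No row of that name was found, and the annotation used for counting is not known. Whether the overlap affected the AHR value is therefore unknown.

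ARNT, the nuclear partner of AHR and also of the HIF alpha subunits (NCBI gene 405, chromosome 1, 150809705 to 150876768), was at 32.8 and 35.5 TPM with lactate and at 24.4 and 19.8 TPM without. Both lactate libraries were the higher. The means were 34.2 ± 1.87 and 22.1 ± 3.22 TPM with and without lactate, a ratio of 1.55 and a log2 fold change of 0.61 ± 0.14.

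The restraining genes differed less. AHRR (NCBI gene 57491, chromosome 5, 304176 to 438291) was at 21.0 and 19.3 TPM with lactate and at 15.7 and 15.4 TPM without, a log2 fold change of 0.35 ± 0.11. TIPARP (NCBI gene 25976, chromosome 3, 156673235 to 156706770) was at 21.9 and 28.2 TPM with lactate and at 18.2 and 19.9 TPM without, a log2 fold change of 0.37 ± 0.15. Neither gene overlapped between groups, but the gap for TIPARP was 1.95 TPM, smaller than the 6.37 TPM between its lactate libraries. The table also lists the readthrough gene PDCD6-AHRR, at 11.3 and 8.31 TPM with lactate and 6.7 and 4.75 TPM without. It shares exons with AHRR, so the split of reads between them is uncertain.

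Of the 6 genes 5 had a log2 fold change above 0 with groups that did not overlap. Across all tested rows 59.2% had a log2 fold change above 0. The groups were free of overlap in 58.4% of all rows, in 37.0% with lactate the higher and in 21.3% with lactate the lower. Nothing is read from the members' count, since the contrast was used in choosing them, and no p-value is given for them.

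**Figure D2:**
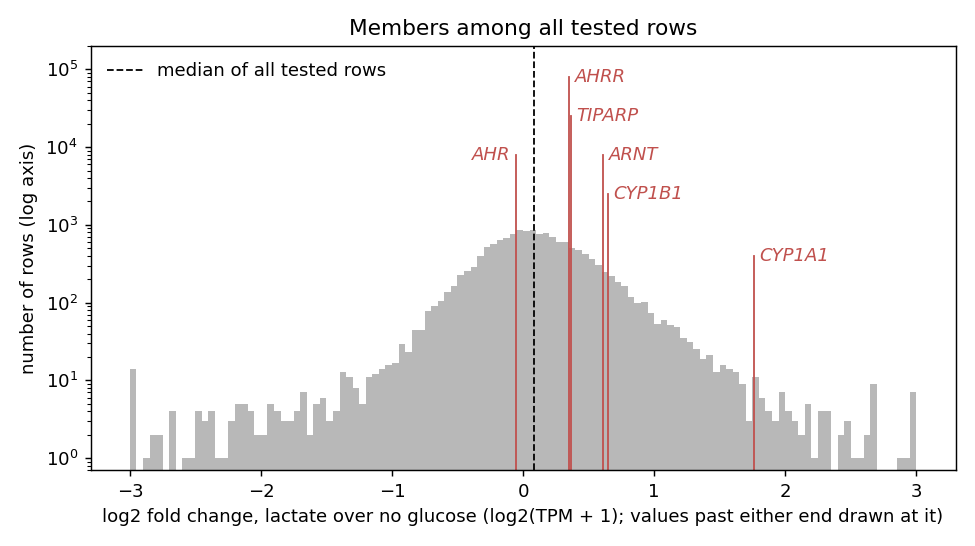
Log2 fold change, lactate over no glucose, of the 15051 tested rows in grey (horizontal axis, log2(TPM + 1); vertical axis, number of rows on a log scale). The 7 rows above and 12 rows below the drawn range are placed at its ends, red lines mark the 6 genes at heights chosen for legibility, and the dashed line is the median of 0.083. CYP1A1 at 1.77 lies in the far right tail, while AHRR and TIPARP lie on the shoulder of the distribution.

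The order of levels differed between conditions mainly by the place of CYP1A1. With lactate the order was CYP1B1, ARNT, CYP1A1, TIPARP, AHRR and AHR, and CYP1A1 and TIPARP overlapped. Without lactate it was CYP1B1, ARNT, TIPARP, AHRR, AHR and CYP1A1, with overlap between ARNT and TIPARP and between AHRR and AHR. Within a library, CYP1A1 was 0.322 and 0.273 times the level of CYP1B1 with lactate and 0.139 and 0.114 times without. Relative to AHR it was 2.29 and 1.71 times with lactate and 0.623 and 0.42 times without. These ratios do not depend on how a library is scaled, and both separated the groups. The ratio of AHRR to its target AHR, 1.76 and 1.17 with lactate and 1.22 and 0.926 without, did not.

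The pattern of CYP1A1 over the 4 libraries was compared with that of every other tested row, as the Euclidean distance between log2(TPM + 1) values centred on their mean. The 5 nearest named genes were C11orf53 (distance 0.0498), VSIR (0.107), STON1 (0.160), AKR1C3 (0.161) and NPAS1 (0.176), against a median distance of 1.72. VSIR encodes an immune checkpoint receptor, STON1 an endocytic adaptor and AKR1C3 a reductase of steroids and prostaglandins. AKR1C3 was at 8.49 and 8.72 TPM with lactate and 2.41 and 1.65 TPM without, and C11orf53 at 5.33 and 5.23 TPM with lactate and 0.93 and 0.71 TPM without. With 4 libraries in 2 groups, nearness mostly reflects a like difference between the groups on the log2(TPM + 1) scale. The added 1 shrinks the change of weakly expressed genes. C11orf53 and VSIR averaged 0.82 and 0.62 TPM without lactate, so nearness does not mean a like ratio in TPM.

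Among 56 other genes of the pathway, 39 were tested and 17 lay below the filter. Of the 39, 4 passed an adjusted p under 0.05 with a higher value with lactate, none passed with a lower value and 35 did not pass. The 4 make up 10.3% of the 39. Of all tested rows 6.59% passed, 4.69% with a higher and 1.9% with a lower value with lactate. In limma 11 of the 39 had an unadjusted p under 0.05 in either direction, as had 28.2% of all tested rows. Their median log2 fold change was 0.16 against 0.083 for all rows. With so few calls, the share is near that of all rows and is not a result about the pathway as a whole. The calls numbered 5 with a pseudocount of 0.1 and 6 with protein-coding genes only, where calls over all rows also rose. Under median-ratio scaling they numbered 2, NPAS1 and ALDH3A1. No call remained when low rows were not filtered out or when any 1 library was left out. With 3 libraries only 1 residual degree of freedom remains, so a smaller sample and dependence on a library cannot be told apart.

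The AHR targets outside the 6 genes held 2 of the calls, 16.7% of the 12 tested targets against 6.59% of all tested rows. NQO1, a quinone reductase that is also a target of NRF2, was at 563.7 and 593 TPM with lactate and at 431.2 and 426.5 TPM without. ALDH3A1, which oxidises aldehydes, was at 140 and 117.8 TPM with lactate and at 72.1 and 71.5 TPM without. Both rose, NQO1 by 0.43 ± 0.08 (adjusted p = 0.0453, limma) and ALDH3A1 by 0.83 ± 0.11 on the log2 scale (adjusted p = 0.0332). The other 10 of 12 tested targets did not pass, among them the abundant amino acid transporter SLC7A5 at 178.7 and 170.7 TPM with lactate and 206.4 and 197.7 TPM without (-0.21, adjusted p = 0.183). The median of the 12 was 0.43 against 0.083 for all tested rows. In limma 5 of the 12 and 28.2% of all tested rows had an unadjusted p under 0.05. With so few calls, the share is not a result about these targets as a whole. A further 11 targets were below the filter. CYP1A2 was at 0.14 and 0.18 TPM with lactate and 0.01 and 0.04 TPM without, too low to compare. UGT1A6, named after its values were seen, was at 5.25 and 2.53 TPM with lactate and 0.74 and 0.69 TPM without (1.45, adjusted p = 0.0632). It did pass with a pseudocount of 0.1 and with protein-coding genes only. It shares most of its exons with other UGT1A genes, so its value is uncertain.

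None of 10 genes of the cytosolic complex and of AHR turnover passed in limma. An unadjusted p under 0.05 was found in 2 of the 10 and in 28.2% of all tested rows. The chaperone HSP90AB1 was at 1621 and 1679 TPM with lactate and 1818 and 1912 TPM without. HSP90AA1 was at 1105 and 1266 TPM with lactate and 1362 and 1454 TPM without, and the cochaperone PTGES3 (p23) at 410.8 and 496.3 TPM with lactate and 442 and 535.4 TPM without. Both HSP90 genes lay lower with lactate without overlap, with log2 fold changes of -0.18 ± 0.08 and -0.25 ± 0.10 that did not pass (adjusted p = 0.202 and 0.174). The median of the 10 was -0.05.

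Of 13 bHLH-PAS relatives 7 were tested and all had a log2 fold change above 0, as had 59.2% of all tested rows. NPAS1 alone passed, with a higher value with lactate. NPAS1, a transcription factor known from neurons, was at 11.3 and 10.3 TPM with lactate and 2.98 and 2.6 TPM without (1.63 ± 0.15, adjusted p = 0.0244, limma). NPAS2, named after its values were seen, was at 5.04 and 4.11 TPM with lactate and 2.34 and 2.1 TPM without. Its log2 fold change of 0.79 did not pass (adjusted p = 0.0689, limma), but it did with protein-coding genes only. HIF1A, which competes for ARNT, was at 48 and 54.4 TPM with lactate and 45 and 49.8 TPM without (0.11, adjusted p = 0.573). The circadian factors CLOCK and BMAL2 had log2 fold changes of 0.16 and 0.15 and did not pass. Among 10 coactivators and corepressors, CALCOCO1, which binds p160 coactivators, alone passed. It was at 23.1 and 20.5 TPM with lactate and 13.3 and 11.3 TPM without (0.78 ± 0.13, adjusted p = 0.0418). The chromatin remodeller SMARCA4 (0.07), the p160 coactivator NCOA2 (0.05) and the Mediator subunit MED1 (-0.37) did not pass.

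**Figure D3:**
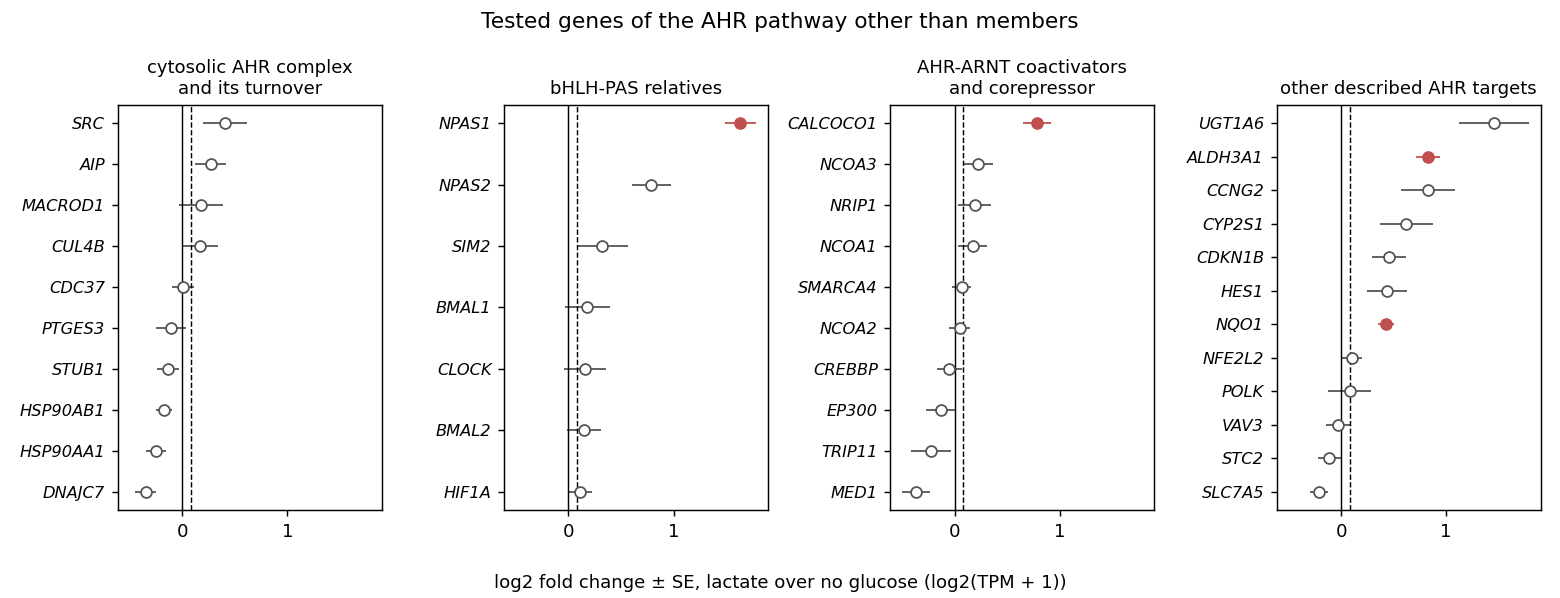
Log2 fold change ± SE, lactate over no glucose, of the 39 tested pathway genes other than the 6 members, in 4 lists. Filled red points passed an adjusted p under 0.05 (NPAS1, CALCOCO1, ALDH3A1 and NQO1) and open points did not, the solid line is 0 and the dashed line the median of all rows, 0.083.

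Other P450 genes of families 1 to 4 were mostly silent. Of 36 in the table, 10 had a mean of at least 1 TPM, and CYP1B1 was the most abundant in every library. CYP2R1, a vitamin D 25-hydroxylase, lay below CYP1A1 with lactate and above it without, at 17.2 TPM in each lactate library and 13.5 and 17.7 TPM without (0.14, adjusted p = 0.588, limma). CYP1A1 and CYP1B1 are members and are given without a test. Among the others CYP4F11, a fatty acid hydroxylase, alone passed. CYP4F11 was at 3.59 and 2.96 TPM with lactate and 0.89 and 0.72 TPM without (1.24 ± 0.23, adjusted p = 0.0456, limma). That call ended under median-ratio scaling and with a replicate block. CYP2D7, CYP2S1, CYP2U1, CYP3A5, CYP4V2 and CYP2D6 had log2 fold changes between -0.34 and 0.62 and did not pass. CYP2D6 and CYP2D7 are near-identical, so their values are uncertain.

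**Figure D4:**
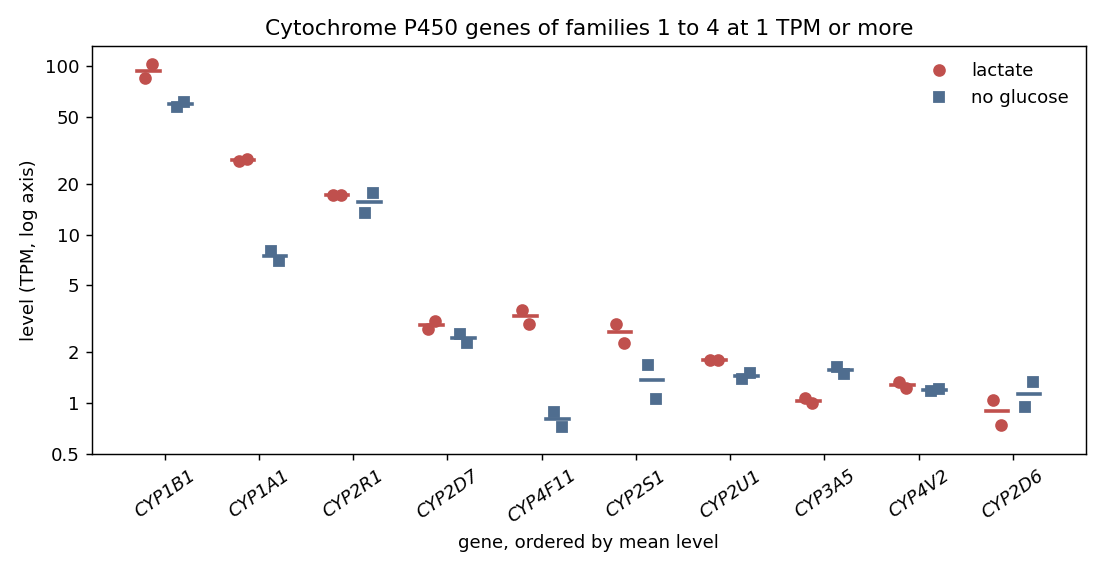
Level in TPM, on a log axis, of the 10 P450 genes of families 1 to 4 with a mean of at least 1 TPM. Circles are the 2 lactate libraries, squares the 2 no glucose libraries and lines the group means. CYP1A1 and CYP4F11 lie furthest apart between groups, and CYP2R1 overlaps.

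Microsomal P450 enzymes need electrons from the reductase POR. POR was at 70.0 and 69.3 TPM with lactate and 50.1 and 45.3 TPM without and rose by 0.54 ± 0.10 on the log2 scale (adjusted p = 0.0467, limma). EPHX1, an epoxide hydrolase that acts on the products of CYP1A1, was at 100.5 and 100.8 TPM with lactate and 56.9 and 55.2 TPM without and rose by 0.83 ± 0.09 (adjusted p = 0.0278). These were 2 of 9 tested partners of the P450 system (22.2%, against 6.59% of all tested rows), and 7 did not pass. In limma 4 of the 9 and 28.2% of all tested rows had an unadjusted p under 0.05. With so few calls, the share is not a result about these partners as a whole. PGRMC1 and CYB5B had log2 fold changes of -0.15 and -0.19. The POR call ended under median-ratio scaling.

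Genes that could supply AHR ligands from tryptophan were low or did not pass. Of 16 genes of tryptophan catabolism and uptake 8 were tested and none passed in limma. Among the 8, 2 had an unadjusted p under 0.05, as had 28.2% of all tested rows. IDO1, which opens the kynurenine route and was picked after its values were seen, was at 0.14 and 0.07 TPM with lactate and 0.19 and 0.04 TPM without. TDO2, which catalyses the same step and was picked likewise, was below the filter at 1.22 and 1.35 TPM with lactate and 0.37 and 0.46 TPM without. Of the amino acid transporter subunits, SLC3A2 averaged 291.1 TPM with lactate and 291.2 TPM without, and SLC7A8 had a log2 fold change of 0.08.

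Of 10 tested genes that overlap or neighbour a member, TIPARP-AS1 alone passed, with a higher value with lactate. This antisense RNA starts beside TIPARP on the other strand and was at 5.12 and 7.22 TPM with lactate and 1.94 and 1.55 TPM without (1.37 ± 0.22, adjusted p = 0.0390, limma). It shares 37 exonic bases with TIPARP. CSK, next to the CYP1A genes on chromosome 15, was at 43.2 and 41.7 TPM with lactate and 38.5 and 37.1 TPM without (0.16, adjusted p = 0.328), and PDCD6 and EXOC3 beside AHRR had log2 fold changes of -0.29 and 0.24 that did not pass.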

How the data were processed

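RNA of HGC27 cells was sequenced in 2 lactate and 2 no glucose samples, grouped by their titles. The authors deposited 1 table with a TPM value per gene and library, made with RSEM 1.3.3 on build hg38 according to the submitters' processing notes. For the aligner, the annotation and the strand setting, the sources used here give nothing. TPM keeps no record of depth, so no counting error was computed.

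A mean of 1 TPM or more was required, which kept 15051 of 60666 rows, and log2(TPM + 1) was fitted in R 4.3.3 by limma 3.58.1, using condition as sole term and a prior variance trended on the mean. The p-values, two-sided, were adjusted over all tested rows by Benjamini-Hochberg, and an adjusted p under 0.05 was called. The fit was tried on simulated normal values with the same spread in every row. Real rows differ in spread, so that trial does not vouch for the calls. An exact permutation test of 2 against 2 cannot go below p = 0.333 and was not used. The p-values set the difference between groups against the spread within them, pooled in part across rows. The labels do not say whether samples of a group were separate cultures, so that spread may be technical only. The p-values may therefore not extend to new cultures. Members and lists were chosen with earlier results of these data known. Older symbols were used for BMAL1 and BMAL2. Named genes were all members, up to 6 called and the 3 most abundant genes of each list, the 5 rows nearest to CYP1A1, and P450 genes of families 1 to 4 at 1 TPM or more. Some genes that this rule takes are not reported here. Members were placed with GENCODE release 29 (GRCh38, as hg38), and promoters came from RefSeq (GRCh38.p14), where 5 of 6 members matched. Alternatives were a pseudocount of 0.1, no filter, a 5 TPM filter, protein-coding genes only, leaving out mitochondrial genes, scaling by median ratios, a replicate block and leaving out each library. An analysis of counts was not run, since the values are TPM.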

Additional observations from a re-analysis of the deposited data

How the results depend on the processing

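CYP1B1, ARNT, AHRR and TIPARP kept a log2 fold change above 0 in all 11 alternatives, and CYP1A1 did so between 1.67 and 1.88, whereas AHR lay above 0 in 2 and below 0 in the others. With a pseudocount of 0.1 CYP1A1 was at 1.88, and under median-ratio scaling CYP1A1 was at 1.67 and AHRR at 0.26. When 1 library was left out, log2 fold changes lay between 1.68 and 1.85 for CYP1A1, 0.51 and 0.78 for CYP1B1, 0.47 and 0.76 for ARNT, 0.29 and 0.41 for AHRR, 0.19 and 0.54 for TIPARP, and -0.27 and 0.16 for AHR.

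All rows gave 992 calls, 706 higher and 286 lower with lactate. Protein-coding genes only gave 2063 calls (1497 higher, 566 lower), 6 of them in the pathway. A pseudocount of 0.1 gave 1204 calls, 5 of them in the pathway, and a 5 TPM filter gave 442 lower. Median-ratio scaling gave 389 higher, so 50.5% of its calls were higher against 71.2%, and 2 calls among the pathway genes, both higher, against 4. Without a filter on low values there were 0 calls over 30146 rows, none of them higher, lower or in the pathway, while 5072 rows had an unadjusted p under 0.05. Leaving out 1 library left between 0 and 8 calls (0 to 6 higher, 0 to 2 lower), 0 of them in the pathway, with 2377 to 3794 rows at an unadjusted p under 0.05. The lone sample of a group is then assumed to vary like the other group. The replicate numbers are shared by both groups but nothing says that they pair the samples, and differences between replicates correlated at 0.035 across rows. In both groups replicate 1 had more rows above 0 (25075 with lactate, 25764 without) than replicate 2 (23457 and 23272). What lies behind this was not tested. With the replicate block 1207 rows were called, 5 of them in the pathway, and the log2 fold changes of the members were the same by construction. How many reads stand behind a low TPM is unknown, and genes near or under 1 TPM cannot be compared firmly.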

Other observations

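Conjugating enzymes, which act after P450 oxidation, held 3 calls among 17 tested genes, all higher with lactate, and 14 did not pass in limma. The calls make up 17.6% of the 17, against 6.59% of all tested rows. An unadjusted p under 0.05 was found in 7 of the 17 and in 28.2% of all tested rows. With so few calls, the share is not a result about these enzymes as a whole. GSTM3, a glutathione transferase, was at 195.1 and 213.6 TPM with lactate and 113.8 and 118.8 TPM without (log2 fold change 0.81, adjusted p = 0.0308). The sulfotransferase SULT1A1 was at 9.46 and 12.4 TPM with lactate and 4.11 and 3.19 TPM without (1.36, adjusted p = 0.0344), and SULT2B1 at 4.71 and 6.78 TPM with lactate and 1.14 and 1.49 TPM without (1.53, adjusted p = 0.0371). SULT1A1 has near-identical copies, so its value is uncertain. The abundant GSTP1 was at 912.5 and 837.3 TPM with lactate and 745 and 797 TPM without, and did not pass. The median of the 17 was 0.26 against 0.083 for all tested rows.

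Other xenobiotic receptors were low or did not pass. NR1I2 (PXR), the main inducer of CYP3A4 in liver and picked after its values were seen, was listed at 0 in all 4 libraries. Of 8 tested genes in this list the efflux pump ABCC3 alone passed, and that call ended under median-ratio scaling. ABCC3 was at 4.27 and 3.37 TPM with lactate and 1.12 and 0.89 TPM without (1.26, adjusted p = 0.0430, limma). ABCC1, RXRB and RXRA had log2 fold changes of 0.40, 0.33 and 0.11 and did not pass. As for the other calls, those named here ended without a filter on low values and whenever 1 library was left out.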
